A study of Mus musculus with 6 samples.

Results

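The genes described here build and run mitosis: cyclins, mitotic kinases and phosphatases, spindle checkpoint and anaphase proteins, kinetochore and centromere proteins, spindle motors, the cytokinesis machinery and the condensins, with Ki-67 and 2 transcription factors of the mitotic program. They were taken from a fixed list of 55 symbols, of which 54 were measured among the 18182 genes of the array, each by its brightest probe set. Ccnb1 is not analysed here. RNA came from limb cells sorted for green fluorescence from mouse embryos of genotype Tg:Pax7-nGFP, in which nuclear GFP is driven by Pax7, the paired-box factor of muscle stem and progenitor cells, on a C57BL/6:DBA2 background. All 6 samples carry this transgene and were dissociated with trypsin before sorting, with no other treatment. The 2 groups differ in age, E12.5 or E17.5 (days of embryonic development), with 3 biological replicates (A, B and C) at each age and 1 Affymetrix array per replicate. Sorting on GFP keeps cells in which the protein is present, which can include descendants that have moved beyond the progenitor state. The comparison of E17.5 with E12.5 asks how the division machinery of these limb cells compares between early and late stages of prenatal muscle growth.

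A cell enters mitosis when cyclin-dependent kinase 1, bound to cyclin A or B, is switched on by Cdc25 phosphatases against the brake of Wee1. Chromosomes are compacted by condensin, captured by microtubules at the kinetochore, and held until the spindle checkpoint releases the anaphase-promoting complex, which destroys securin and cyclin B; separase then cuts cohesin and the cell is cleaved by the central spindle and contractile ring. Most of these genes are transcribed in late cell cycle by a shared program in which the MuvB complex, with B-Myb and FoxM1, acts through a promoter element called CHR, often near CCAAT boxes bound by NF-Y. In developing muscle, Pax7-expressing progenitors divide to expand and either remain progenitors or leave the cycle and differentiate.

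Promoter windows from RefSeq (assembly GRCm38.p6, 250 bases before the start site and 50 from it on) were found for 44 of the 54 genes. The sequence TTTGAA, the canonical CHR, was searched on both strands together with CCAAT (the motifs may share a letter where they abut, which none of the windows printed below does). TTTGAA occurred in the windows of 32 genes (72.7%), against 2260 of the 14442 genes on the array with a window (15.65%; 20.2% of all 27025 genes with a window). It began within 50 bases of the start in 28 genes (63.6%, against 4.09% on the array). CCAAT was found in 32 genes (72.7%, against 42.0% on the array), and both motifs in 27 (61.4% against 6.20%). A match is a description of these letters, not a measured binding site. The windows below are shown because they belong to the pair of genes with the largest called falls (Ccnf and Kif2c), the pair called higher (Anln and Kif23) and a pair with no called difference and high signal (Mki67 and Top2a). They read 5′ to 3′ on the gene's strand, and capitals mark TTTGAA or CCAAT on either strand.
Ccnf (chr17:24251360-24251659, minus strand): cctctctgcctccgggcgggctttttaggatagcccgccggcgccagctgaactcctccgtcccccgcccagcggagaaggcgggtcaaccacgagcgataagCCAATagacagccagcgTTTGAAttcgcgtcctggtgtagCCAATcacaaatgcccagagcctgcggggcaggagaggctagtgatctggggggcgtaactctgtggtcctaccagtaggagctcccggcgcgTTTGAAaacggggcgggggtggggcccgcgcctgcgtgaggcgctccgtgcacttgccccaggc
Kif2c (chr4:117178723-117179022, minus strand): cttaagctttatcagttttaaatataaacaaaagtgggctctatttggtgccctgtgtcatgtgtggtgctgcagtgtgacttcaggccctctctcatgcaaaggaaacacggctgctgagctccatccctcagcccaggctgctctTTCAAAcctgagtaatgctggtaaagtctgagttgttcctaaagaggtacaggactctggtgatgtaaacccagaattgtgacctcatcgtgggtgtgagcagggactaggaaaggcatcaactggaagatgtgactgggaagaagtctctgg
Anln (chr9:22389157-22389456, minus strand): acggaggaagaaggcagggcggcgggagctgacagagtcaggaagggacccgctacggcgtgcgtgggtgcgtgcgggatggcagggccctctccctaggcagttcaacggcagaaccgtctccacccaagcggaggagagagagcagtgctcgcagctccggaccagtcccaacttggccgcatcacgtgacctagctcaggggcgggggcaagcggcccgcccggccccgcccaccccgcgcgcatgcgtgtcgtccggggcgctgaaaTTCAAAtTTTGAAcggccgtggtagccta
Kif23 (chr9:61946750-61947049, minus strand): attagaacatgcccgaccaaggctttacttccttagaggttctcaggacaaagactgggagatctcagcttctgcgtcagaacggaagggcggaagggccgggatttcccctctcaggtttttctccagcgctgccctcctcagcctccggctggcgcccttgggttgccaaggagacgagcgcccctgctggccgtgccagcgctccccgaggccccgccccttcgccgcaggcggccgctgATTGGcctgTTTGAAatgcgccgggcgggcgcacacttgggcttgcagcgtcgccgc
Mki67 (chr7:135716330-135716629, minus strand): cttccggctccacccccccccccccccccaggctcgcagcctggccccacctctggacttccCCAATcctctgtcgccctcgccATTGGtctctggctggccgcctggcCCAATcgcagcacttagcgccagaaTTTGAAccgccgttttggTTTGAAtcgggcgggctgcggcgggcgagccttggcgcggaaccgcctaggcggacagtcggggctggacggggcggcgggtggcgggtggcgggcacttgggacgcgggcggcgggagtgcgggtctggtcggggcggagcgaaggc
Top2a (chr11:99024140-99024439, minus strand): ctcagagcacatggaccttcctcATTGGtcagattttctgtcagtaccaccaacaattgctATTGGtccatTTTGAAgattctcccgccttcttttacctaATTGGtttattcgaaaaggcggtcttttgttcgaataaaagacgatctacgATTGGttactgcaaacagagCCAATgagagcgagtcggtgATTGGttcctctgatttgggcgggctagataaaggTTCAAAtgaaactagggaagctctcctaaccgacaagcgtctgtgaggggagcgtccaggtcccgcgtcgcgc
Counting from the start base as 0, a CHR began at -14 and another at -130 in Ccnf, at 2 in Kif23, and at 21 and 28 in Anln. The Kif2c window held a CHR at -103 and no CCAAT, and the Top2a window held 6 CCAAT boxes. Of the 8 called-lower genes with a window 5 held a CHR, of the 2 called higher 2 did, and of the 34 not called 25 did (73.5%).

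**Figure D1:**
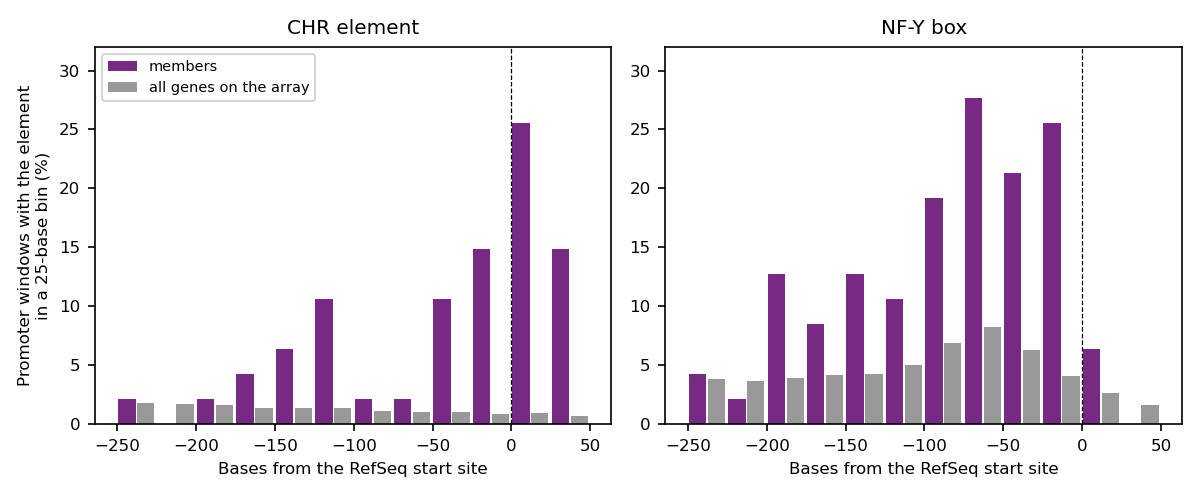
Share of promoter windows (%, vertical axis) in which the CHR (left) or the CCAAT box bound by NF-Y (right) began in each 25-base bin, by distance in bases from the RefSeq start site (horizontal axis, dashed line at the start), for the 47 windows of the mitosis genes (purple) and the 18096 windows of all genes on the array (grey). The CHR reached 25.5% of the members' windows in the bin from 0 to 25, against 0.967% on the array.

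Most of the mitosis genes were not called different between the ages, and of those called most were lower at E17.5, by less than 2-fold in all but Ccnf. Signals are log2 values after the authors' GCRMA processing, and each difference is the E17.5 mean minus the E12.5 mean in log2 units (n = 3 arrays each). Its standard error (SE) comes from limma's moderated test, whose p-value was adjusted by Benjamini-Hochberg over all genes; a gene is called at an adjusted p under 0.05. Of the 54 genes, 2 were called higher and 9 lower, and 43 were not called; with each array centred on the genes whose mean reached 6, 0 were called higher and 9 lower. Over all 18182 genes 16.9% were called, 8.21% higher and 8.73% lower, so the share of members called higher (3.70%) lay below and that called lower (16.7%) above the background. Among the genes whose mean reached 9, 13.4% were called higher and 12.8% lower. Exactly 1 member, Ccnf, differed by at least 2-fold (1.85%, against 12.9% of all genes and 10.8% of genes whose mean reached 9). The median difference of the members was -0.14 and that of all genes was 0.00, with -0.05 over the 4493 genes whose mean reached 9. For 37 of the 43 genes not called, the 95% interval of the difference lay inside a 2-fold change, and for 22 inside a 1.5-fold change. The 2-fold count was near the background: 2857 of 3314 uncalled genes whose mean reached 9 (86.2%) had such an interval. Regardless of the test, 35 members had a negative and 19 a positive difference. Over all genes 8048 were negative and 9484 positive. Among the 4493 genes whose mean reached 9, 2441 were negative and 2042 positive.

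Signals of the members were mostly far above the dense low range of GCRMA values under 4: 53 had a mean of at least 6 and 47 of at least 9. The exception was Kif15, a spindle motor, which lay between 2.27 and 2.36 on all 6 arrays in the range of background signal. The median SD between replicates was 0.16 at E12.5 and 0.13 at E17.5, and the median SE of a difference was 0.14. The number of arrays limits the precision.

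E17.5 replicates A and B were near copies, and whether they are separate samples or 1 sample measured 2 times cannot be told apart here; in the second case E17.5 has 2 samples, not 3. Over all genes whose mean reached 6 the SD of their difference was 0.15, and the remaining pairs of one age gave 0.41 to 0.55. For the members, their values differed by at most 0.30, with an SD of the difference of 0.11, and were equal in 9 genes, whereas the other same-age pairs had SDs of 0.20 to 0.41. Counting the mean of A and B as 1 sample left 4 members called lower (Ccnf, Kif2c, Pttg1 and Espl1) and none higher, against a background of 10.2% of all genes (4.54% lower and 5.62% higher). At an unadjusted p under 0.05 in the fit of all 6 arrays, 25 members passed (46.3%, against 28.4% of all genes and 44.4% of those whose mean reached 9). The same 4 genes were called in each of the 6 fits that left out 1 array. The count of members called lower was 4 without E12.5 C, without E17.5 A or without E17.5 B, 5 without E12.5 B, 8 without E17.5 C and 12 without E12.5 A. The count called higher was 0 without E12.5 C, E17.5 A or E17.5 B, 1 without E12.5 B or E17.5 C and 2 without E12.5 A. All 3 E17.5 arrays lay below all 3 E12.5 arrays in 19 members and above them in 9, against 17.2% and 14.2% of all genes. As shares, these were 35.2% and 16.7% of the members, against 24.9% and 21.8% of the genes whose mean reached 9.

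Of 7 measured muscle progenitor markers 2 were called higher and 1 lower. Their summed signal (log2) overlapped, at 13.58 to 14.36 at E12.5 and 14.29 to 14.53 at E17.5. Cdh15 (0.92, adjusted p = 0.0889) and Met (-0.53, adjusted p = 0.223) were not called in limma. Pax7 was at 11.46 ± 0.28 at E12.5 and 12.37 ± 0.15 at E17.5 (SD, n = 3; called higher), the progenitor marker Pax3 was called lower, and Myf5 and Myod1 were above 10 on every array. Itga7, an integrin gene of the myogenic lineage, was under 4 at E12.5 (2.19, 2.17 and 2.31) and at 9.18, 9.16 and 8.84 at E17.5 (called higher). Markers of other cells moved with age: the summed signal of 6 measured erythroid markers lay between 13.03 and 14.94 (log2) at E12.5 and between 5.93 and 6.44 at E17.5, with the embryonic globin gene Hbb-y at 13.02 to 14.89 and at 3.23 to 4.46. Hbb-y made up most of the sum at E12.5. Of these 6 markers 3 were called lower, the globin genes Hbb-y, Hba-x and Hbb-bh1, and Hba-a1 was under 4 on every array. Alas2 (0.69, adjusted p = 0.182) and Slc4a1 (-0.87, adjusted p = 0.213) were not called in limma. The summed signal of 5 keratinocyte markers did not overlap either (8.61 to 9.59 against 7.25 to 7.40, 2 called lower), nor did that of 5 cartilage markers (9.09 to 10.76 against 7.92 to 8.48, 1 called lower). Of 6 connective tissue markers 3 were called lower and 1 higher, and their sum overlapped (10.14 to 12.52 and 9.54 to 10.86). The sum of 8 differentiating-muscle markers was 11.67 to 12.96 at E12.5 and 13.54 to 13.68 at E17.5, with 4 called higher. Myog made up most of the E17.5 sum (10.34, 11.74 and 11.52 at E12.5 and 12.99, 13.13 and 13.05 at E17.5, called higher). Of the 8, 7 had positive differences, and Myh3 had a negative one (-0.73, not called). The sum of 6 endothelial markers was 6.45 to 7.67 and 10.12 to 10.39, a gap that Tek alone carried (4.83 to 5.90 and 10.08 to 10.33, called higher). The other 5 endothelial markers had negative differences, none called, and Pecam1 was under 4 on every array. Leukocyte sums were 5.61 to 7.12 and 7.13 to 7.48 (2 of 6 called higher, with Ptprc, Itgam and Cd3e under 4 on every array), and nerve and Schwann cell sums were 4.58 to 5.32 and 4.53 to 4.69 (0 of 4 called, 0 with A and B averaged and 0 at an unadjusted p under 0.05 in limma). The part of these other cells in the differences below was not tested. In bulk RNA of this kind, fewer dividing cells and less mitotic RNA per cell cannot be told apart.

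**Figure D2:**
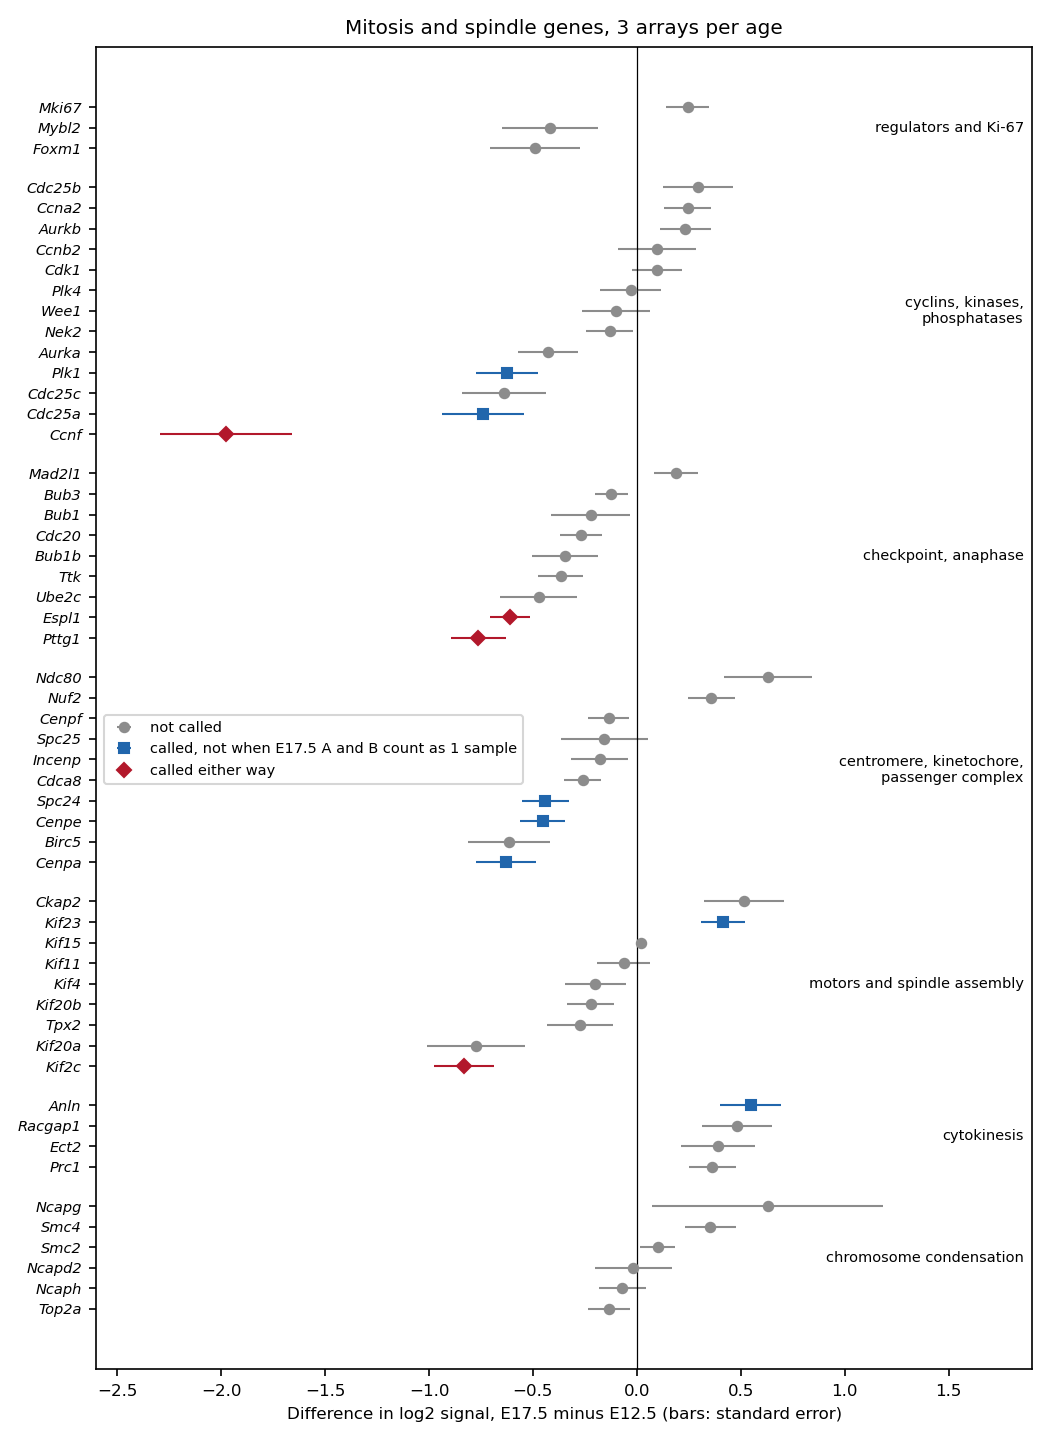
Difference in log2 signal (horizontal axis, E17.5 minus E12.5, bars are standard errors) for each of the 54 genes, grouped by role. Red diamonds mark the 4 genes called with or without counting E17.5 A and B as 1 sample, blue squares the 7 called only when A and B count as 2 samples, and grey circles the 43 not called; the 4 cytokinesis genes all lie to the right of 0.

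Among the cyclins, kinases and phosphatases, the cyclin F gene had the largest difference of all members, and Cdk1 and its cyclins were not called. Ccnf encodes the F-box cyclin of an SCF ubiquitin ligase that limits centrosome duplication and ribonucleotide reductase in G2. Its signal was 9.02, 9.31 and 9.29 on the E12.5 arrays and 7.65, 7.54 and 6.50 on the E17.5 arrays. The ages did not overlap, and E17.5 C was the lowest of all. The fall was 3.94-fold (difference -1.98, SE 0.32, adjusted p = 0.00701), and -1.61 without E17.5 C (adjusted p = 0.00242). Its other probe set, at 6.89, 7.04 and 6.95 against 5.43, 4.95 and 4.25, differed by -2.08.

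Plk1, the polo-like kinase of mitotic entry and spindle assembly, was at 10.72, 11.12 and 11.20 at E12.5 and at 10.27, 10.49 and 10.41 at E17.5. It fell by 0.62 (SE 0.15, adjusted p = 0.0325), with no overlap between ages. Cdc25a, a phosphatase that activates CDKs at both G1/S and G2/M, was at 10.07, 10.59 and 10.55 and then at 9.84, 9.79 and 9.36, and fell by 0.74 (SE 0.20, adjusted p = 0.0457). Among the fits that left out 1 array both genes were called without E12.5 A (adjusted p = 0.00700 for Plk1 and 0.0185 for Cdc25a) and in no other; the remaining adjusted p ran from 0.0644 to 0.12 for Plk1 and from 0.0792 to 0.144 for Cdc25a. With E17.5 A and B averaged their adjusted p was 0.0922 and 0.0864. A second Cdc25a probe set differed by -0.62, but with all 3 of its probe sets averaged Cdc25a was not called (adjusted p = 0.166). The mitotic phosphatase gene Cdc25c lay beside them (difference -0.64, SE 0.20, adjusted p = 0.0785, non-overlapping), and so did the centrosomal kinase gene Aurka (-0.43, SE 0.14, adjusted p = 0.0976); both were called without E12.5 A (adjusted p = 0.0266 and 0.0155), and Cdc25c also with its probe sets averaged (-0.59, adjusted p = 0.0179).

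Cdk1, the catalytic subunit of the mitotic kinase, was at 11.34, 11.56 and 11.48 and at 11.45, 11.47 and 11.75, so the ages overlapped (difference 0.10, SE 0.12, 95% interval -0.19 to 0.38, adjusted p = 0.753). The cyclin genes Ccnb2 (0.10, SE 0.19, adjusted p = 0.868) and Ccna2 (0.24, SE 0.11, adjusted p = 0.22) were not called. Ccna2 was higher on every E17.5 array (11.77, 11.78 and 12.03 against 11.63, 11.50 and 11.72), but its second probe set differed by -0.07. Wee1, the inhibitory kinase of CDK1, was at -0.10 (SE 0.16, adjusted p = 0.835) and the other phosphatase gene, Cdc25b, at 0.29 (SE 0.17, adjusted p = 0.344). Aurkb, the kinase of the chromosomal passenger complex, was at 0.23 (SE 0.12, adjusted p = 0.288), Nek2, which splits centrosomes, at -0.13 (adjusted p = 0.589) and Plk4, the kinase of centriole duplication, at -0.03 (adjusted p = 0.948). In this group of 13 measured genes 0 were called higher and 3 lower, with a median of -0.10. The 3 made 23.1%, against 8.73% of all genes and 12.8% of genes whose mean reached 9. In limma 5 had an unadjusted p under 0.05 (38.5%, against 44.4% of genes whose mean reached 9).

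**Figure D3:**
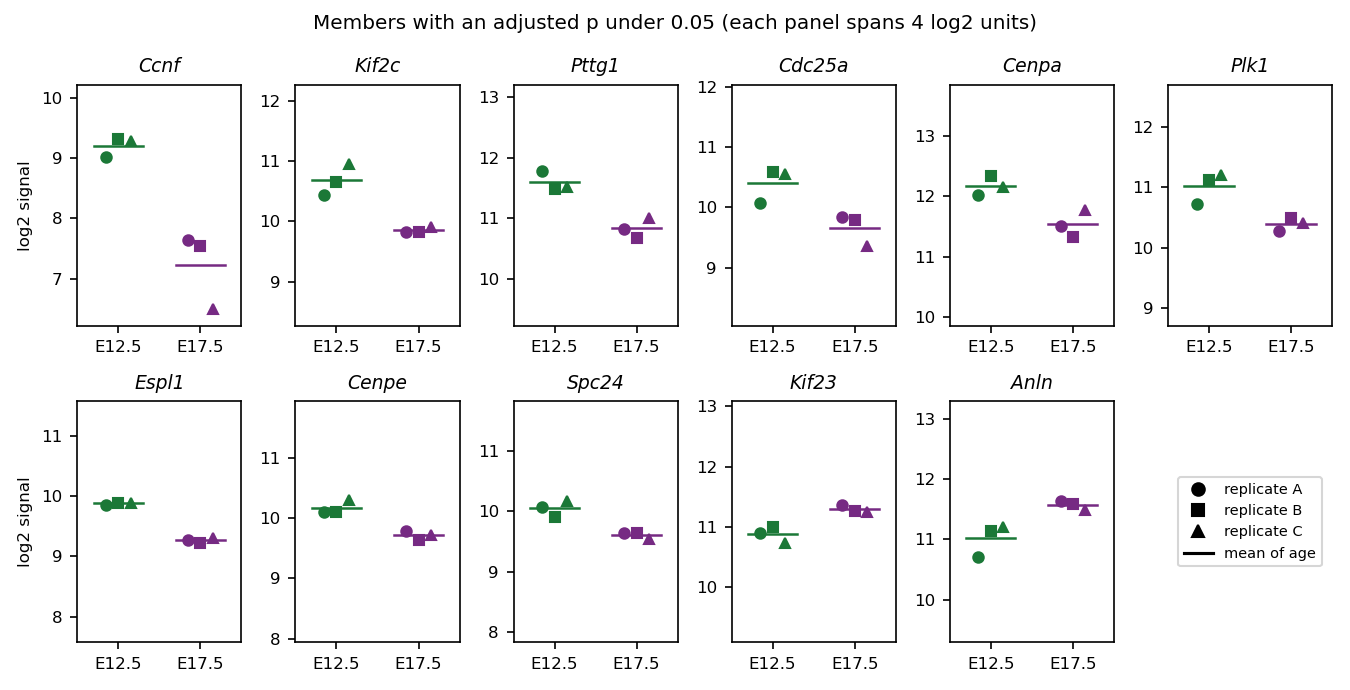
Log2 signal (vertical axis, 4 log2 units in each panel) of the 11 called genes on each array, by age (green E12.5, purple E17.5; circle, square and triangle are replicates A, B and C; lines are age means). Ccnf shows the widest gap, while the pairs of ages in the other panels are separated by less than 1 log2 unit.

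Of the 9 spindle checkpoint and anaphase genes, 8 had a negative difference, and the 2 called, both lower, act at the cut of sister chromatid cohesion. Espl1 encodes separase, the protease that opens the cohesin ring. Its signal was 9.86, 9.89 and 9.89 at E12.5 and 9.27, 9.23 and 9.31 at E17.5, and it fell by 0.61 (SE 0.10, adjusted p = 0.00643; 0.0442 with E17.5 A and B averaged). The SD between replicates was 0.02 at E12.5 and 0.04 at E17.5. Pttg1 encodes securin, the inhibitor that holds separase until anaphase. It was at 11.79, 11.49 and 11.51 and then at 10.82, 10.67 and 11.01, a fall of 0.76 (SE 0.13, adjusted p = 0.00972; 0.0413 with A and B averaged). A second Pttg1 probe set differed by -0.96, and a dimmer one by 0.33 (6.19, 6.03 and 6.33 against 6.68, 6.66 and 6.21), which overlapped between ages. The call rests on probe sets whose IDs mark matches to several transcripts: averaged over all its probe sets Pttg1 was not called (-0.46, adjusted p = 0.0591).

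The other members of this group were not called. Ttk (Mps1), the kinase that starts checkpoint signalling, was at 9.84, 9.96 and 9.81 and at 9.48, 9.42 and 9.61 (difference -0.37, SE 0.11, adjusted p = 0.0645), and was called without E17.5 C (-0.42, adjusted p = 0.0445). Ube2c, the ubiquitin-conjugating enzyme of the anaphase-promoting complex, was at -0.47 (SE 0.18, adjusted p = 0.145) and was called without E12.5 A (-0.68, adjusted p = 0.00894). Its activator Cdc20 was at -0.27 (SE 0.10, adjusted p = 0.131), with all E17.5 arrays below all E12.5 arrays. The checkpoint genes Bub1b (-0.35, adjusted p = 0.214), Bub1 (-0.22, adjusted p = 0.573) and Bub3 (-0.12, adjusted p = 0.413) were also negative. Mad2l1, which encodes the checkpoint protein that captures Cdc20, was the one with a positive difference (0.19, SE 0.11, adjusted p = 0.326). The median of the group was -0.35. Its share called lower was 22.2%, against 8.73% of all genes and 12.8% of genes whose mean reached 9.

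The centromere, kinetochore and passenger complex genes gave 0 called higher and 3 called lower of 10, with a median of -0.22. The 3 made 30%, against 8.73% of all genes and 12.8% of genes whose mean reached 9. Cenpa, the histone H3 variant that marks centromeres, was at 12.02, 12.33 and 12.15 and at 11.50, 11.33 and 11.78, and fell by 0.63 (SE 0.14, adjusted p = 0.0276). Cenpe, the kinetochore motor that moves chromosomes to the spindle equator, was at 10.09, 10.10 and 10.30 and at 9.78, 9.64 and 9.71, and fell by 0.45 (SE 0.11, adjusted p = 0.0318). Neither overlapped between ages. The call of Cenpa was kept without E12.5 A (adjusted p = 0.0305) or E17.5 C (0.0140) and lost without any of the other 4 arrays (0.0805 to 0.0995), and that of Cenpe was kept without E12.5 A alone (0.0343, against 0.0516 to 0.147). With E17.5 A and B averaged the adjusted p was 0.0941 for Cenpa and 0.115 for Cenpe. A second Cenpe probe set, at 9.17, 9.55 and 9.54 and at 9.45, 9.38 and 8.88, overlapped between ages (-0.18), and a second Cenpa probe set differed by -0.97. Averaged over their probe sets neither gene was called (adjusted p = 0.175 for Cenpe and 0.0793 for Cenpa). Cenpf, a large kinetochore protein of G2 and mitosis, was at -0.14 (SE 0.10, adjusted p = 0.489).

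The 4 subunits of the NDC80 complex, which couples kinetochores to microtubules, had differences of both signs. Spc24, in the end of the complex that faces the chromosome, was at 10.07, 9.90 and 10.17 and at 9.64, 9.64 and 9.54, and fell by 0.44 (SE 0.11, adjusted p = 0.0399; 0.132 with A and B averaged). That call was kept without E12.5 B (adjusted p = 0.0425) and lost without any other array (0.0659 to 0.146). Its partner Spc25 overlapped between ages (-0.16, SE 0.21, adjusted p = 0.782). Ndc80, in the end that binds microtubules, was at 8.97, 8.83 and 9.08 and at 9.74, 9.89 and 9.14 (difference 0.63, SE 0.21, adjusted p = 0.0958), and was called without E17.5 C (0.86, adjusted p = 0.0101). Its partner Nuf2 was at 10.51, 10.24 and 10.52 and at 10.70, 10.82 and 10.82 (0.36, SE 0.11, adjusted p = 0.0818). Both of these had every E17.5 array above every E12.5 array. The difference between the pairs of subunits was not tested.

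The chromosomal passenger complex corrects faulty attachments and later guides cytokinesis. Birc5 (survivin), its centromere-targeting subunit, was at 11.13, 11.30 and 11.28 and at 10.37, 10.42 and 11.07, so replicate C stood above A and B at E17.5 (difference -0.62, SE 0.20, adjusted p = 0.0830). It was called without E17.5 C (-0.84, adjusted p = 0.00439). Cdca8 (borealin) was at -0.26 (SE 0.09, adjusted p = 0.102; called without E17.5 C at adjusted p = 0.0489), and the scaffold gene Incenp at -0.18 (SE 0.14, adjusted p = 0.525).

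Among the motors, 1 gene was called lower and 1 higher. Kif2c encodes MCAK, which depolymerises microtubules at centromeres. It was at 10.44, 10.66 and 10.95 at E12.5 and at 9.83, 9.82 and 9.91 at E17.5, a 1.78-fold fall (difference -0.83, SE 0.14, adjusted p = 0.00978; 0.0435 with A and B averaged). Its second bright probe set differed by -1.03, with no overlap either, but taken alone gave an adjusted p of 0.0615 in limma, and the mean of all 4 probe sets one of 0.0685. Kif20a, a kinesin that brings Aurora B to the central spindle, was at 10.03, 10.66 and 10.84 and at 9.91, 9.84 and 9.46 (-0.77, SE 0.24, adjusted p = 0.0720), and was called without E12.5 A (-1.01, adjusted p = 0.0123). Kif23, which encodes the motor of centralspindlin (MKLP1), was at 10.91, 11.01 and 10.73 and at 11.37, 11.27 and 11.25, and rose by 0.41 (SE 0.11, adjusted p = 0.0403). Its second bright probe set differed by 0.45. The call of Kif23 was kept without E12.5 B (adjusted p = 0.0486) and lost without any other array (0.0550 to 0.167) or with E17.5 A and B averaged (0.145). Averaging its probe sets gave an adjusted p of 0.0607.

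Ckap2, a microtubule-associated protein of spindle poles, was at 8.58, 8.99 and 9.09 and at 9.54, 9.55 and 9.11 (0.51, SE 0.19, adjusted p = 0.134). The bipolar-spindle motor gene Kif11 (-0.06, adjusted p = 0.874), the chromokinesin gene Kif4 (-0.20, adjusted p = 0.494), Kif20b (-0.22, adjusted p = 0.264) and Tpx2, the Aurora A activator (-0.27, adjusted p = 0.346), overlapped between ages. Of 9 motor and spindle assembly genes, Kif15 included, 1 was called higher and 1 lower, with a median of -0.20. These made 11.1% each, against 8.21% and 8.73% of all genes and 13.4% and 12.8% of genes whose mean reached 9.

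The 4 genes listed under cytokinesis differed in the other direction from most members. Each had a positive difference, from 0.36 to 0.55, with a median of 0.44. Counted with the motors, Kif23 (centralspindlin) was at 0.41 and Kif20a (central spindle) at -0.77. Of the 4, Anln was called higher (25%, against 8.21% of all genes and 13.4% of genes whose mean reached 9). Anln encodes anillin, which organises the contractile ring. It was at 10.71, 11.14 and 11.21 and at 11.63, 11.59 and 11.48, and rose by 0.55 (SE 0.15, adjusted p = 0.0496). The call was kept without E12.5 A (adjusted p = 0.0365) and lost without any other array (0.0579 to 0.159) or with E17.5 A and B averaged (0.154). Racgap1, the GTPase-activating partner of Kif23 in centralspindlin, was at 10.09, 10.40 and 9.92 and at 10.65, 10.82 and 10.38 (0.48, SE 0.17, adjusted p = 0.113), but its second bright probe set differed by -0.03.

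Prc1, which bundles the antiparallel microtubules of the midzone, was at 9.95, 9.94 and 10.11 and at 10.32, 10.26 and 10.51, with no overlap (0.36, SE 0.11, adjusted p = 0.0758). Its second probe set, at 9.85, 9.91 and 9.96 and at 10.38, 10.43 and 10.46, differed by 0.52, and Prc1 was called when its probe sets were averaged (0.44, adjusted p = 0.0254). Ect2, the exchange factor that activates RhoA at the cleavage site, was at 10.96, 10.32 and 10.48 and at 10.91, 10.91 and 11.11, so E12.5 A lay inside the E17.5 range (0.39, SE 0.18, adjusted p = 0.213). Without that array it was called (0.58, adjusted p = 0.0209). Of these 4 genes, Anln and Prc1 had all E17.5 arrays above all E12.5 arrays. The group median lay between 0.40 and 0.47 in the fits without 1 array.

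The chromosome condensation genes had 0 of 6 called (1 at an unadjusted p under 0.05, Smc4; 0 with A and B averaged), with a median of 0.04. Top2a, the topoisomerase that untangles sister chromatids, was at 12.93, 12.96 and 13.07 and at 12.91, 12.95 and 12.70 (-0.13, SE 0.10, adjusted p = 0.510). The core ATPase genes of condensin were at 0.10 for Smc2 (adjusted p = 0.580) and 0.35 for Smc4 (SE 0.12, adjusted p = 0.109). Smc4 had every E17.5 array above every E12.5 array (12.95, 12.87 and 12.66 against 12.60, 12.29 and 12.53). The condensin I subunit genes Ncapd2 (-0.02, adjusted p = 0.982) and Ncaph (-0.07, adjusted p = 0.830) overlapped between ages. Ncapg, the other HEAT-repeat subunit of condensin I, had the highest SE of the 54 genes, at 8.21, 9.38 and 9.41 and at 10.29, 10.14 and 8.46 (0.63, SE 0.56, adjusted p = 0.596).

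The regulators were not called (0 of 3, and 0 at an unadjusted p under 0.05). Mki67, which encodes the Ki-67 protein of the mitotic chromosome surface, was at 13.00, 12.91 and 12.83 and at 13.24, 13.24 and 12.99; the overlap came from E17.5 C. The 95% interval of its difference was -0.01 to 0.49. Foxm1, the forkhead activator of G2/M genes, was at 6.89, 7.34 and 7.43 and at 6.75, 6.62 and 6.82 (-0.49, SE 0.22, adjusted p = 0.202). Mybl2, which encodes B-Myb, was at 6.45, 6.76 and 7.05 and at 6.40, 6.29 and 6.32 (-0.42, SE 0.23, adjusted p = 0.321), and its second probe set differed by 0.09. In both transcription factor genes all E17.5 arrays lay below all E12.5 arrays, with E12.5 A the closest to them.

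**Figure D4:**
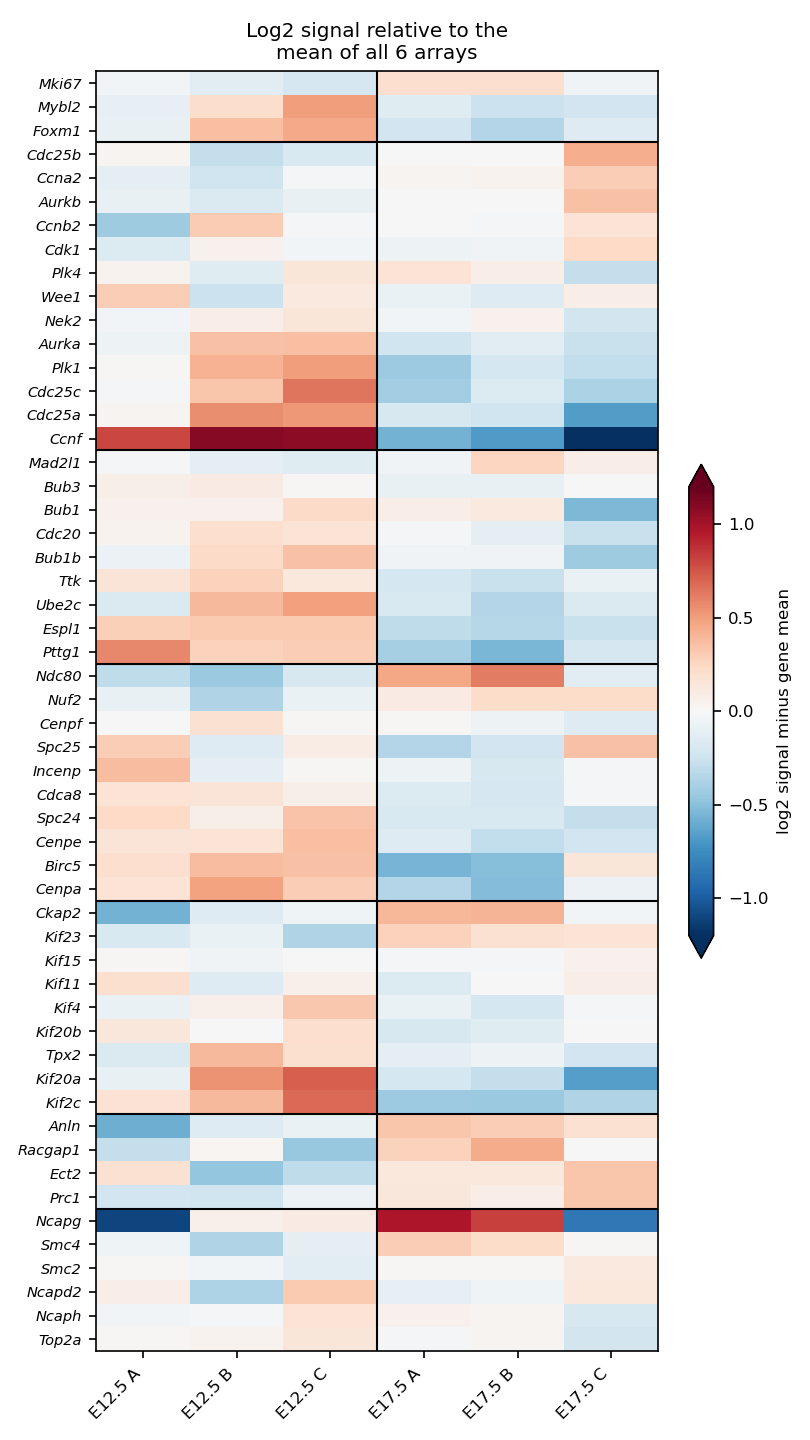
Log2 signal of each gene on each array minus the gene's mean over all 6 arrays (red above, blue below, colour limits at 1.2), with genes grouped by role and lines between groups and ages. The Ccnf row changes colour between ages on every array, the E17.5 A and B columns are nearly alike, and the Ncapg row is low in both E12.5 A and E17.5 C.

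Probe sets of one gene did not always give one answer. The 54 genes had 123 probe sets, and 29 genes had several with a mean of at least 6. In 19 of these 29 all such probe sets had differences of one sign, and the median range within a gene was 0.24; in 6 it was at least 0.50 (Mybl2, Pttg1, Kif11, Racgap1, Smc2 and Ncapg). The second Ncapg probe set was at 8.93, 8.89 and 9.22 and at 8.98, 8.93 and 8.87, without the spread of the first. A Smc4 probe set was at 9.78, 10.61 and 10.68 and at 11.47, 11.60 and 10.12, and a Plk4 probe set at 6.71, 8.17 and 8.40 and at 8.36, 8.29 and 6.66. These share one pattern, low in E12.5 A and in E17.5 C, which was singled out after the values were seen. A probe set counted when E12.5 A and E17.5 C each lay at least 0.50 below every other array of their age. The pattern appeared in 6 of the members' 123 probe sets (4.88%), against 2.16% of all 44994 probe sets. The reverse, high in both arrays by the same margin, appeared in 2 of the 123 (1.63%, against 1.23%). The 44994 were not matched to the members for signal, and 91 of the 123 had a mean of at least 6. What sets these arrays apart was not tested.

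**Figure D5:**
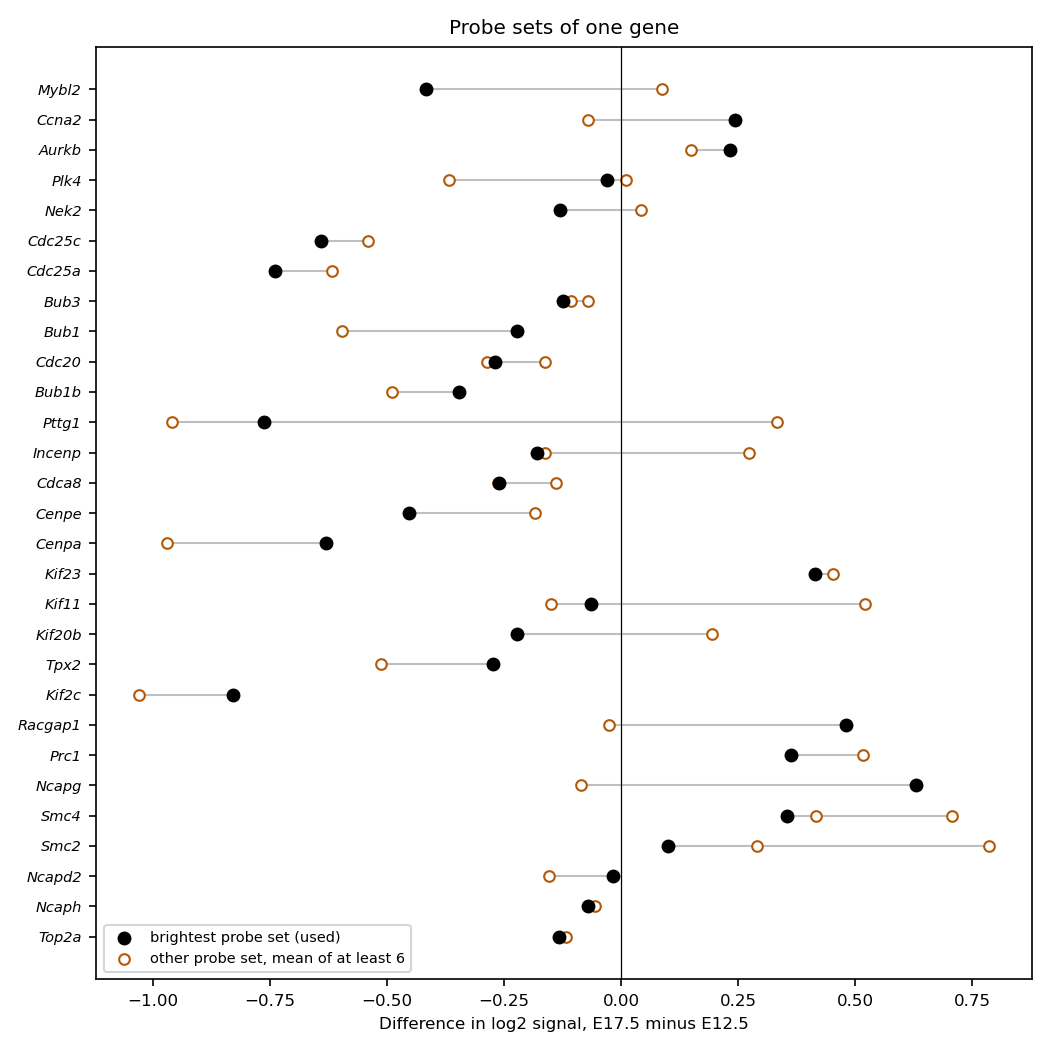
Difference in log2 signal (horizontal axis, E17.5 minus E12.5) of every probe set with a mean of at least 6, for the 29 genes with more than 1; filled black circles are the brightest probe set, which stands for the gene, and open circles the others. The circles of Pttg1 span -0.96 to 0.33, while those of Kif2c, Kif23 and Cdc25a stay on one side of 0.

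Of a further 113 mitosis genes outside the list, 111 were measured. They gave 7 called higher and 13 lower with a median of -0.10 (0 and 3 with E17.5 A and B averaged). The 7 and 13 made 6.31% and 11.7%, against 8.21% and 8.73% of all genes. Among genes whose mean reached 9 the shares were 13.4% and 12.8%. Of the 34 checkpoint and kinetochore genes 15 had an unadjusted p under 0.05 in limma (44.1%, against 44.3% of genes whose mean reached 6). Of the 13 called falls, 7 lay in this group, where 0 were called higher. These 7 made 20.6% of the group, against 8.73% of all genes and 13.2% of genes whose mean reached 6. They included Cenpu of the inner kinetochore (-1.13, adjusted p = 0.0102), the checkpoint-silencing gene Mad2l1bp (-0.99, adjusted p = 0.0308) and Ska2, a subunit of the SKA complex that holds kinetochores to microtubules, at 11.19, 11.27 and 11.31 and then 10.30, 10.23 and 10.46 (-0.93, SE 0.10, adjusted p = 0.00142). In the entry and anaphase-promoting complex group, 4 of 32 fell and 1 rose. Cdc14b, a mitotic exit phosphatase gene, had the largest fall of the 111, from 9.61, 9.40 and 9.54 to 7.21, 7.03 and 7.09 (-2.41, SE 0.13, adjusted p = 0.000133). The histone H3 kinase gene Haspin fell by 1.17 (adjusted p = 0.0357), Lin37, a MuvB subunit gene, fell by 0.84 (adjusted p = 0.0461), and the mitotic kinase gene Pbk rose by 0.43 (adjusted p = 0.0388).

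Of 31 other spindle, centrosome and cytokinesis genes, Psrc1 (-1.01, adjusted p = 0.00915) and the centriole gene Sass6 (-0.70, adjusted p = 0.0404) fell and the spindle gene Nusap1 (0.41, adjusted p = 0.0385) rose. That made 6.45% of the 31 called lower and 3.23% called higher. Of 14 other condensin and cohesin genes 5 were called higher and 0 lower. The 5 made 35.7%, against 8.21% of all genes and 13.4% of genes whose mean reached 9. Of the 14, 5 had negative differences, and 3 of these did not overlap between ages. Those called were Esco2, the cohesin acetyltransferase gene (1.45, adjusted p = 0.0162), the condensin II gene Ncapg2 (0.91, adjusted p = 0.0191), Stag1 (0.52, adjusted p = 0.0429), Stag2 (0.46, adjusted p = 0.0216) and the cohesin kleisin gene Rad21 (0.45, adjusted p = 0.0183). With E17.5 A and B averaged none of these 5 was called, and Cdc14b, Ska2 and Psrc1 were the 3 that stayed called. The 39 measured genes of DNA replication, the preceding step of the cycle, gave 2 called higher and 4 lower (1 and 1 with A and B averaged). The 2 and 4 made 5.13% and 10.3%, against 8.21% and 8.73% of all genes and 13.4% and 12.8% of those whose mean reached 9. The median of the replication genes was -0.14, beside -0.14 for the mitosis genes and -0.05 for genes whose mean reached 9. The difference between the lists was not tested.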

How the data were processed

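Limb cells of 6 mouse samples, 3 at E12.5 and 3 at E17.5, were sorted for GFP, and 100 ng of RNA was amplified for 3' Affymetrix arrays, per the labels' protocols. The authors deposited 1 log2 value for each probe set. The submitters' processing notes name GCRMA without a version; it models background from probe sequence and compresses unspecific signal. Deposited log2 values ran from 0.96 to 15.94. Signal over background stands in for depth.

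Of 44994 probe sets 34909 had 1 symbol in the platform annotation and 34705 of these were updated through entrez ID (GRCm38.p6, names only); 931 with several symbols were left out. Each of the 18182 genes was taken by its brightest probe set and fitted in limma 3.58.1 under R 4.3.3 (lmFit, then eBayes with trend, unfiltered), with adjusted p-values (Benjamini-Hochberg, 0.05) over all genes; the fit was tested on simulated data. Replicates are called biological by the labels. The members and lists were chosen with earlier results of these data known. All members are named; of the other mitosis genes, up to 3 called rises and 3 called falls per subgroup, and Stag2 and Rad21 beyond that rule because they complete a count of 5. Alternatives were probe set choice, filters, floor, normalization, variance prior, array weights, replicate block, averaging of E17.5 A and B, threshold and leaving out each array. Figures were drawn with matplotlib 3.10.9.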

Additional observations from a re-analysis of the deposited data

How the results depend on the processing

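The number of members called (2 higher and 9 lower) depended on the settings. Members called higher numbered 0 without shared-match probe sets (IDs ending in _s_at, _x_at or _a_at), with centring on genes with a mean of at least 6, with robust eBayes, with the replicate block, with E17.5 A and B averaged or at an adjusted p of 0.01, and 1 with the floor at 4, with further quantile normalization or with eBayes without trend. Members called lower numbered 5 with the mean of all probe sets, with only probe sets without those endings or with the replicate block, and 4 with E17.5 A and B averaged or at 0.01. Centring left 9 lower beside 0 higher and quantile normalization 9 beside 1. Without shared-match probe sets, Anln (0.55) and Kif23 (0.41) kept their probe sets and differences, but 16580 genes were tested. Their adjusted p in limma was then 0.0594 and 0.0524. Members with shared-match probe sets only, such as Prc1 and Birc5, dropped out of that setting. Array weights, which were 4.98 and 3.24 for E17.5 A and B but 0.14 for E17.5 C, called 12 higher and 26 lower. Leaving out 1 array gave 0 to 2 higher and 4 to 12 lower. The replicate block (5 lower, 0 higher) uses the replicate letters, and the labels give no pairing beyond these letters. Deviations of same-letter arrays from their age means correlated at -0.38, 0.25 and -0.07 across the genes whose mean reached 6. With E17.5 A and B near copies these values are not independent, so they cannot settle whether the letters pair the arrays. Over all genes array weights called 3204 higher and 5220 lower, and averaging A and B 1021 and 825.

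The median of all members stayed between -0.18 and -0.09 under the 19 alternatives, and the cytokinesis median between 0.40 and 0.55. The 0.55 came from the setting without shared-match probe sets. There Anln was the only cytokinesis gene left, so it is the value of Anln and not of a group. The median of the regulators moved to -0.17 with the mean of all probe sets and to -0.64 with array weights. Pttg1 turned to 0.33 (adjusted p = 0.473) on its one probe set without a shared-match ending. Ccnf and Espl1 were called under all 19 alternatives. Kif2c lost its call with the mean of all probe sets (-0.63, adjusted p = 0.0685) and without shared-match probe sets (-1.03, adjusted p = 0.0615), and Pttg1 with the mean of all probe sets (-0.46, adjusted p = 0.0591). Causes were not tested beyond these constructions. Among the probe sets that stand for the members, only that of Kif15 lay near background. The mean of all probe sets also takes in dim ones. Examples are those of Kif2c with means of 3.155 and 2.42, of Kif23 with 3.26 and of Cenpa with 1.79.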
